A study of Mus musculus with 4 samples.

Results

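The genes described here are 10 members of the interleukin-1 (IL-1) family and the inflammasome, chosen by gene name: Il1a, Il1b, Il1rn, Il18, Il18bp, Nlrp3, Pycard, Casp1, Casp4 and Gsdmd. All 10 were found in each of the 4 deposited tables, which list 54532 genes. RAW 264.7 is a mouse macrophage-like line established from a virus-induced tumour. Polyadenylated RNA was sequenced from wild-type cells and from Hnrnpul1-/- cells, each either untreated or given lipopolysaccharide (LPS, the outer-membrane glycolipid of Gram-negative bacteria) at 100 ng per ml for 10 h. Hnrnpul1 encodes an hnRNP U-like nuclear RNA-binding protein, and the design asks how its loss and LPS each alter the transcriptome. The groups are written WT and KO for the untreated wild-type and knockout cells and WT_LPS and KO_LPS for the treated ones. Each of the 4 groups was 1 library, with 17045432 to 17909549 reads assigned to genes. There was therefore no replicate check, and 1 knockout line was set against 1 wild-type line, so that genotype and cell line cannot be told apart. Whether the knockout line was a single clone is not stated.

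Inflammasome signalling is usually described in stages. Microbial products such as LPS first induce the genes for the cytokine precursors and for the sensor Nlrp3, a stage called priming. A second signal then assembles the sensor with the adaptor ASC, encoded by Pycard, and with caspase-1, which cleaves pro-IL-1β and pro-IL-18 to their active forms and cleaves gasdermin D, whose fragment forms pores in the plasma membrane. Casp4, the mouse gene for caspase-11, senses cytosolic LPS and cleaves gasdermin D directly. Il1rn encodes a receptor antagonist of IL-1α and IL-1β, and Il18bp a secreted protein that binds IL-18. RAW 264.7 cells are known for lacking ASC protein.

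Stretches just before the gene starts are shown for the 3 genes called different between genotypes below (Il1a, Il1b and Il1rn), for Casp4, which had the largest genotype ratio among the members in untreated cells, and for its neighbour Casp1. They come from RefSeq on GRCm38.p6, where 9 of the 10 genes had at least 1 start site, and Gsdmd had none in the table. Each runs 5′ to 3′ on the gene's own strand and ends at the deposited gene start. Il1a is shown at chr2:129309973-129310222 on the minus strand, Il1b at chr2:129371140-129371389 on the minus strand, Il1rn at chr2:24336610-24336852 on the plus strand, Casp1 at chr9:5298267-5298516 on the plus strand, and Casp4 at chr9:5308599-5308827 on the plus strand. Capitals mark every match to 1 of 5 motifs searched on both strands: kappaB, the ISRE core (GAAA, any 2 bases, GAAA), the C/EBP motif TTGCNNAA, the AP-1 motif TGANTCA and the PU.1 motif GAGGAAG.
Il1a: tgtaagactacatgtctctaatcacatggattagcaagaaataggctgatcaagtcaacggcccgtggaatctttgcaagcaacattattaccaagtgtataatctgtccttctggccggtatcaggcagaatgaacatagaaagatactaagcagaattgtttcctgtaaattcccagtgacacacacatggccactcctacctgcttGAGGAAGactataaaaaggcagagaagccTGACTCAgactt
Il1b: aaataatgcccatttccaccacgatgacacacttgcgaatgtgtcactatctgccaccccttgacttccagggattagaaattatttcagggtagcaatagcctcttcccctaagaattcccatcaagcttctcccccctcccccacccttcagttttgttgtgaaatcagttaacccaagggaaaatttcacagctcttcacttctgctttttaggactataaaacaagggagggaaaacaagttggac
Il1rn: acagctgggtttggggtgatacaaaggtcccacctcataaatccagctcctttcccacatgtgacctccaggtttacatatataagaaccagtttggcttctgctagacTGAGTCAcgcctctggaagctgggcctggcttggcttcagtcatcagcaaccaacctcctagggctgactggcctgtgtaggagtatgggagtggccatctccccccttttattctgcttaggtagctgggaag
Casp1: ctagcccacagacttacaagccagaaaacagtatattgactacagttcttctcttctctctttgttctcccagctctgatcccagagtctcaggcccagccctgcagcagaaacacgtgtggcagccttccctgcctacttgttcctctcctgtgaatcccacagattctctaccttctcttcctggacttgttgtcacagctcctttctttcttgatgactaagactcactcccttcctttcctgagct
Casp4: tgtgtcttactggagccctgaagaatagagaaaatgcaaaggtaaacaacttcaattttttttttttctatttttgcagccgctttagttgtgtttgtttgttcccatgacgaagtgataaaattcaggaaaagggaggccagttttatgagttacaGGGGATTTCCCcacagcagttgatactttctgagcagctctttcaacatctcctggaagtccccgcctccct
The Il1a stretch held an AP-1 match at bases -12 to -6 and a PU.1 match at bases -41 to -35, counted back from the RefSeq start site. For Il1rn and Casp4 that site lies inside the deposited gene, and their windows were cut at the gene start to 243 and 229 bases. Their positions below are therefore not counted from the end of the printed stretch. An AP-1 match was also present before Il1rn, at bases -141 to -135. The Casp4 stretch held a pair of overlapping kappaB matches between bases -93 and -83. No match was found in the stretches of Il1b and Casp1. Of all 32817 RefSeq windows of 250 bases, 6.75% held the AP-1 motif, 10.6% the PU.1 motif, 3.90% the kappaB motif, 9.57% the C/EBP motif and 2.97% the ISRE core. A match describes the letters of the window and is neither a binding site nor a cause of a value below.

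Hnrnpul1, the targeted gene, had 5086 reads in WT, 447 in KO, 3114 in WT_LPS and 350 in KO_LPS. Both knockout libraries thus lay below both wild-type libraries, with a log2 genotype effect of -3.38 (adjusted p = 8.09e-06, edgeR's quasi-likelihood test with Benjamini-Hochberg adjustment over all genes). The 10 macrophage markers summed to between 3418 and 8815 normalized CPM (reads scaled to a common library total, with TMM factors) per library, although Mertk had at most 1 read in any library. The sum was 3907 in WT, 3418 in KO, 8815 in WT_LPS and 6014 in KO_LPS, with Lyz2 at 3334 and 1245 CPM and Csf1r at 803 and 499 CPM in WT_LPS and KO_LPS, while Adgre1, Itgam and Ptprc were higher in KO_LPS. The 25 markers of other cell types summed to 28 to 60 reads per library, and 16 of them had no read.

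Levels below are TMM-normalized CPM. A ratio between 2 libraries is given with a 95% interval that covers counting error only, and it compares those libraries rather than the conditions. With 1 library in each group the interval holds no spread between replicates. Where several reads are amplified copies of 1 molecule, it is also too narrow. The call rule for higher or lower asked for a ratio of at least 2-fold and an interval that excluded no change. A gene was measured when its mean over the 4 libraries reached 1 CPM, which 11640 genes did. Of the members, 9 were measured and Pycard was not. Il1a and Il1b passed only through their LPS-treated libraries, so they had to differ and lend no support to a count. In bulk RNA, fewer cells expressing a gene and less RNA per cell cannot be told apart.

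**Figure D1:**
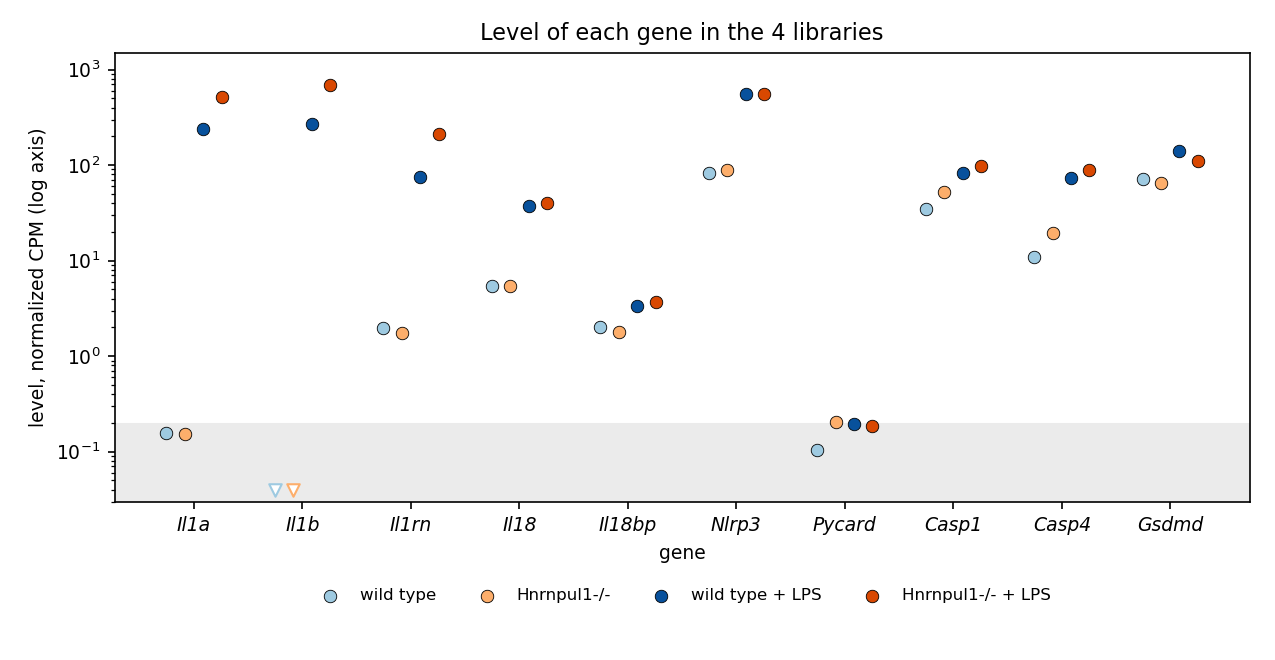
Normalized CPM (log axis) of the 10 genes in the 4 libraries, 1 point per library, with open triangles for libraries at 0 reads; the shaded band marks levels of up to about 3 reads. Il1a and Il1b lie in or below the band in both untreated libraries and above 200 CPM with LPS, while Pycard stays at or near the band in all 4 libraries.

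With LPS, wild-type cells had higher levels of both IL-1 ligands, the antagonist Il1rn, Il18, the sensor Nlrp3 and both caspases. Called higher were 7 of the 10 genes and called lower were 0, where 11.2% of all genes tested were called higher and 10.1% lower. Of the 7 members that had at least 1 CPM in untreated cells, 5 were called higher (Il1rn, Il18, Casp1, Casp4 and Nlrp3), with a median log2 ratio of 2.73. Among all genes with at least 1 CPM in untreated cells 9.46% were called higher and the median was -0.02. In knockout cells the count was again 7 of 10 higher and 0 lower, against 11.6% of all genes higher and 12.0% lower, with Il18bp called and Casp1 not. In a model with LPS and genotype as additive terms, which has 1 residual degree of freedom, 9 of the 9 measured members passed as higher with LPS by edgeR's quasi-likelihood test, as did 30.2% of all genes. For Il1a and Il1b that outcome followed from the filter, so no p is given for them.

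Il1b, the gene for the secreted cytokine IL-1β, had 0 reads in WT and in KO, 4130 reads in WT_LPS and 11186 in KO_LPS. Its levels with LPS were 269 CPM (WT_LPS) and 695 CPM (KO_LPS). No untreated library reached the floor of 3 counts, and the LPS-treated knockout library was the higher of the LPS pair. Set against that floor in each untreated library, Il1b was 1703-fold higher in WT_LPS than in WT and 4485-fold higher in KO_LPS than in KO. The lower counting limits of these ratios were 1385-fold and 3647-fold, and neither had an upper limit. Il1b lies at chr2:129364570-129371139 on the minus strand.

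Il1a, which encodes the alarmin IL-1α, had 3 reads in each untreated library, 3705 with LPS in wild type and 8289 with LPS in knockout cells. These equal 0.158, 0.155, 241 and 515 CPM. The order was that of Il1b, with like untreated values and the knockout library above the wild-type one after LPS. Its LPS ratio was 1528-fold in wild type (log2 10.58, 9.03 to 12.86) and 3324-fold in knockout (log2 11.70, 10.15 to 13.98), the wide intervals coming from the 3 untreated reads. Il1a lies at chr2:129299610-129309972, 54597 bp from Il1b. Together the pair took 0.0460% of the assigned reads in WT_LPS and 0.109% in KO_LPS.

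Antisense genes overlap both ligand genes, and the sources used here do not say whether strand was used in counting, so their reads cannot be told apart from those of the ligands with certainty. Overlaps are given here and below over whole gene spans, introns included, whereas all exons of Il1a cover 1974 bp. Il1bos, which overlaps Il1b over 1243 bp, had 0, 0, 33 and 70 reads in WT, KO, WT_LPS and KO_LPS. Gm14023, which overlaps Il1a over 8217 bp, had 2, 5, 15 and 31 reads in the same order. In the LPS libraries the counts of each were a small share of those of the ligand they overlap, whereas in the untreated libraries Gm14023 had about as many reads as Il1a (3 and 3) and Il1bos, like Il1b, had none. Ckap2l, a mitotic spindle gene 2397 bp from Il1a, had 1026 and 1070 reads untreated and 136 and 209 with LPS, a fall called in wild-type (log2 -2.61, -2.88 to -2.35) and knockout cells (log2 -2.09, -2.31 to -1.87).

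Il1rn, the receptor antagonist gene at chr2:24336853-24351494, had 37 reads in WT, 34 in KO, 1145 in WT_LPS and 3441 in KO_LPS. Its levels were 1.95, 1.76, 74.6 and 214 CPM. The untreated libraries were alike, and the LPS-treated knockout library stood above the LPS-treated wild-type one. The LPS ratio was 38.3-fold in wild type (log2 5.26, 4.79 to 5.77) and 121.7-fold in knockout (log2 6.93, 6.44 to 7.46), with adjusted p = 4.84e-07 for LPS in the additive model (edgeR).

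Il18 (chr9:50554827-50581840), which encodes the precursor of an interferon-γ-inducing cytokine, was already present in untreated cells. It had 103 and 106 reads in untreated wild-type and knockout cells and 577 and 641 with LPS, or 5.42, 5.47, 37.6 and 39.8 CPM. Each genotype pair was nearly equal, and both LPS libraries lay above both untreated ones. The ratio to untreated was 6.93-fold in wild type (log2 2.79, 2.49 to 3.11) and 7.27-fold in knockout (log2 2.86, 2.56 to 3.17). Bco2, a carotenoid oxygenase gene that overlaps Il18 over 355 bp, also had higher counts with LPS, with 68 and 73 reads untreated and 218 and 385 with LPS in wild type and knockout. All exons of Il18 cover 1031 bp. Tex12, which overlaps the gene span of Il18 over 4507 bp, had 0, 0, 12 and 13 reads in WT, KO, WT_LPS and KO_LPS. The part of both genes in the Il18 counts was not tested.

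Il18bp (chr7:102014885-102018690), the gene of the IL-18 binding protein, had few reads throughout: 38 in WT, 35 in KO, 51 in WT_LPS and 59 in KO_LPS. Its levels spanned 1.81 to 3.66 CPM. The LPS ratio was 1.66-fold in wild type (log2 0.73, 0.10 to 1.38) and was not called. In knockout cells it was 2.03-fold (log2 1.02, 0.39 to 1.67), at the edge of the 2-fold rule, and the call was lost with total-count scaling (0.71), thinned libraries (0.91) and the deposited FPKM (0.47). The difference between these ratios had an interval of -0.57 to 1.14 on the log2 scale and was not detectable at this depth. The additive LPS effect of Il18bp had adjusted p = 0.0305 in edgeR and 0.221 in DESeq2.

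Nlrp3, the sensor of the best-studied inflammasome, had 1573 reads in WT, 1705 in KO, 8491 in WT_LPS and 8868 in KO_LPS. Its levels were 82.8, 88.0, 553 and 551 CPM, so the libraries fell into an untreated and an LPS pair with little difference inside each. Nlrp3 rose 6.68-fold with LPS in wild-type (log2 2.74, 2.66 to 2.82) and 6.26-fold in knockout cells (log2 2.65, 2.57 to 2.72; adjusted p = 5.45e-08 in the additive model, edgeR). It lies at chr11:59541568-59566956 on the plus strand.

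Pycard, the adaptor gene, had 2 reads in WT, 4 in KO, 3 in WT_LPS and 3 in KO_LPS. These counts equal 0.105, 0.207, 0.195 and 0.186 CPM, where a floor of 3 counts corresponds to 0.155 to 0.195 CPM. Only the untreated knockout library, with 4 reads, exceeded that floor, so no fold is given for Pycard in any comparison. Pycard lies at chr7:127989708-127993867 on the minus strand. The gene Gm45205 overlaps Pycard over 599 bp and had 0, 2, 0 and 3 reads, so that the origin of the few Pycard reads cannot be told apart.

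Casp1 (chr9:5298517-5307265), the gene for the protease that matures IL-1β and IL-18, had 663 reads in WT, 1013 in KO, 1278 in WT_LPS and 1562 in KO_LPS. Its levels were 34.9, 52.3, 83.2 and 97.0 CPM, with knockout above wild type in each pair and LPS above untreated in each genotype. The LPS ratio was 2.38-fold in wild type (log2 1.25, 1.12 to 1.39) and was called, while in knockout it was 1.85-fold (log2 0.89, 0.78 to 1.01) and was not. With scaling by total counts in place of TMM the wild-type log2 ratio was 0.96 and was no longer called.

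Casp4 (chr9:5308828-5336783), the caspase-11 gene, starts 1562 bp from the end of Casp1. It had 208 reads in WT, 381 in KO, 1117 in WT_LPS and 1448 in KO_LPS, or 10.9, 19.7, 72.8 and 89.9 CPM. The order of the 4 libraries was that of Casp1. Casp4 was called higher with LPS in wild type (6.64-fold, log2 2.73, 2.52 to 2.95) and in knockout cells (4.57-fold, log2 2.19, 2.03 to 2.36). Casp12, the next caspase gene on this strand, had 0 reads in all 4 libraries.

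Gsdmd (chr15:75862327-75867408), the pore-forming substrate of both caspases, had 1360 reads in WT, 1267 in KO, 2167 in WT_LPS and 1759 in KO_LPS. Its levels were 71.6, 65.4, 141 and 109 CPM, and the knockout library was the lower one in each pair. The LPS ratio was 1.97-fold in wild type (log2 0.98, 0.88 to 1.08) and 1.67-fold in knockout (log2 0.74, 0.64 to 0.85), and neither was called. In the additive model Gsdmd passed for LPS with adjusted p = 5.15e-05 (edgeR).

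**Figure D2:**
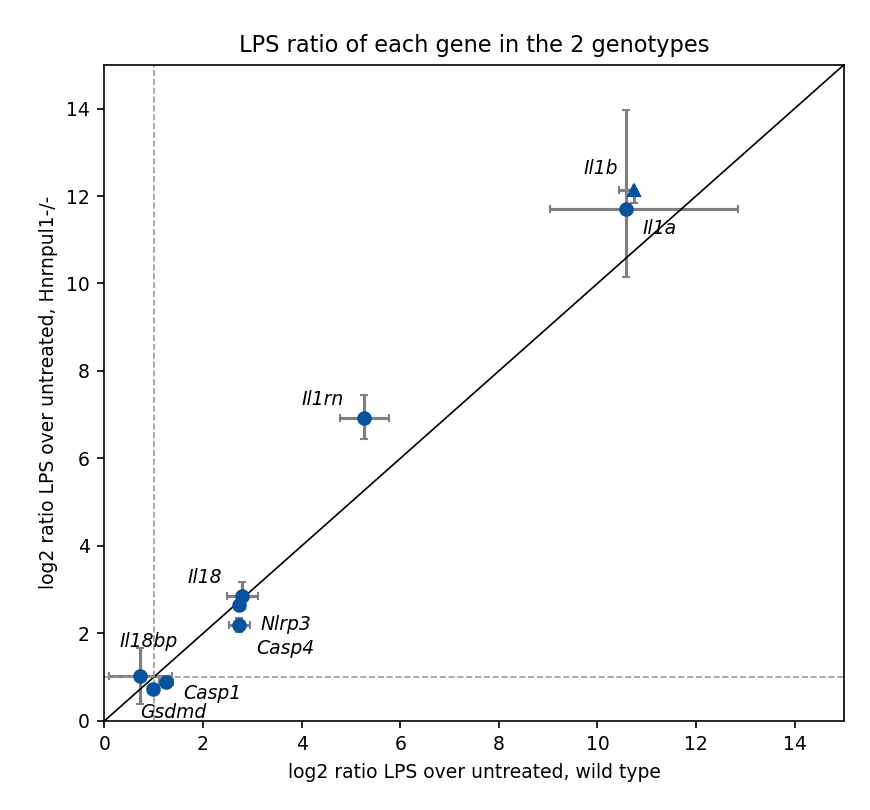
Log2 LPS ratio in knockout (vertical) against that in wild-type cells (horizontal) for the 9 measured genes, with 95% counting intervals, the line of equal ratios and dashed lines at 2-fold. The triangle marks Il1b, whose values are set against a floor of 3 counts in the untreated libraries and have no upper limit. Il1rn lies above the line at 5.26 and 6.93, and Casp1, Casp4 and Gsdmd lie below it.

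Without LPS, the knockout and wild-type libraries differed by less than 2-fold for every member that could be compared. Called were 0 of the 10 genes, against 2.02% of all genes tested in either direction. Il1b had 0 reads in both libraries, and Pycard was not measured. The largest ratio was that of Casp4, with a log2 ratio of knockout to wild type of 0.85 (0.60 to 1.10), followed by Casp1 at 0.58 (0.44 to 0.73). Gsdmd was slightly lower in knockout, at a log2 ratio of -0.13 (-0.24 to -0.02). Intervals that excluded no change at any size were found for these 3 members and for 31.1% of all genes. For Il1rn (-0.87 to 0.56), Il18 (-0.39 to 0.42), Il18bp (-0.85 to 0.56) and Nlrp3 (-0.01 to 0.19) the interval of the log2 ratio included 0, and for Il1a, with 3 reads on each side, it ran from -2.93 to 2.87.

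After LPS, the knockout library had more Il1a, Il1b and Il1rn reads than the wild-type library, and no member was called lower. Called higher were 3 of the 10 genes, against 1.66% of all genes called higher and 1.83% called lower. Il1a and Il1b passed the filter only through their LPS-treated libraries, so they lend no support to this count. Of the 7 members with at least 1 CPM in untreated cells, 1 (Il1rn) was called higher, as were 1.21% of all such genes. Il1rn was 2.87-fold higher in knockout (log2 1.52, 1.42 to 1.62), which placed it 79th from the highest ratio among all genes tested. Il1b was 2.58-fold higher (log2 1.37, 1.32 to 1.42) and Il1a 2.13-fold higher (log2 1.09, 1.04 to 1.15). The agonists and their antagonist thus lay on the same side. The summed macrophage markers lay on the other, at 8815 CPM in WT_LPS and 6014 CPM in KO_LPS. Lyz2 had the largest difference among them (3334 and 1245 CPM), while Adgre1, Itgam and Ptprc were higher in KO_LPS. The part of the markers in the differences of Il1a, Il1b and Il1rn was not tested.

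The other members differed less between the LPS-treated libraries. Casp4 was 1.24-fold higher in knockout (log2 0.31, 0.19 to 0.42) and Casp1 had a log2 ratio of 0.22 (0.11 to 0.33). Gsdmd was the only member whose interval lay below 0, at -0.37 (-0.46 to -0.28), or 0.774 of the wild-type level. An interval excluding 0 was also found for 40.2% of all genes, whatever its size. Nlrp3 had a log2 ratio of -0.01 (-0.05 to 0.04), Il18 of 0.08 (-0.08 to 0.25) and Il18bp of 0.14 (-0.42 to 0.71).

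**Figure D3:**
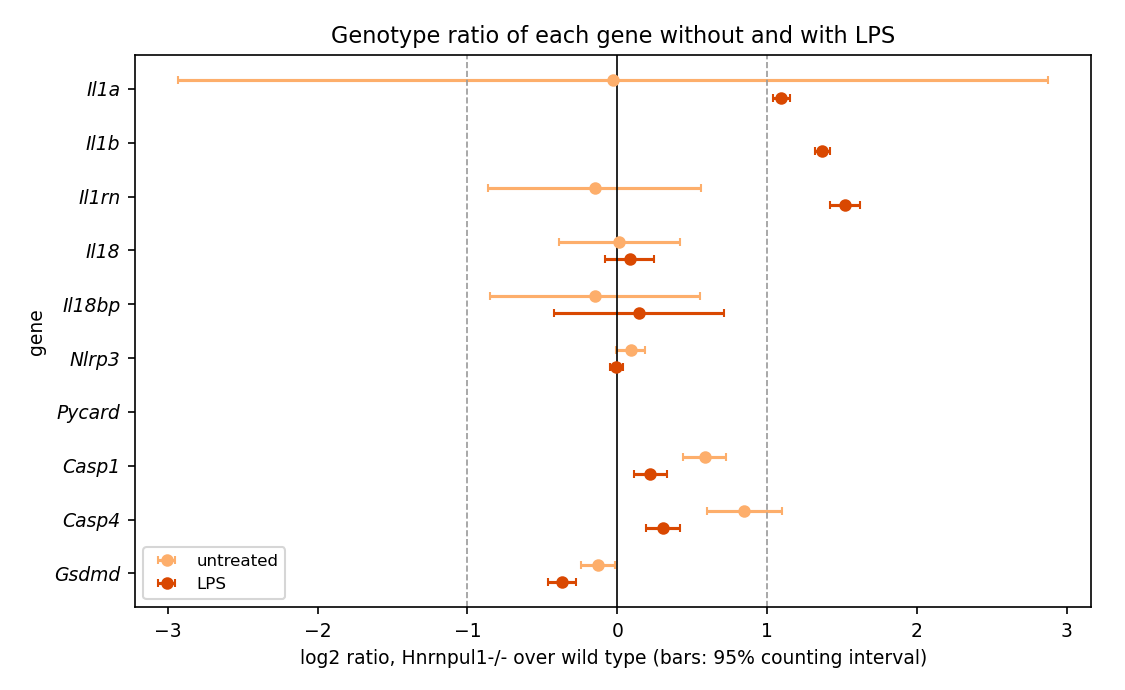
Log2 ratio of knockout to wild type for each gene, untreated and with LPS, with 95% counting intervals and lines at 2-fold. With LPS the points of Il1a, Il1b and Il1rn lie beyond the 2-fold line at 1.09, 1.37 and 1.52, and no untreated point does.

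In the additive model, edgeR's log2 genotype effects were 1.08 for Il1a, 1.37 for Il1b and 1.32 for Il1rn (adjusted p = 0.0291 for Il1rn, quasi-likelihood test). All 3 passed as higher, as did 0.988% of all genes in this direction. The Il1a and Il1b values rest on the LPS-treated pair, since the untreated libraries held 3 or fewer reads. Both compare 1 library with 1, so no p is given for them and they lend no support to a count. For Il1rn the log2 genotype ratio was -0.15 (-0.87 to 0.56) untreated and 1.52 with LPS. Its additive effect therefore does not describe the untreated cells, and the only residual of the model is that difference between treatments. DESeq2 called 0 of the 9 measured members, against 0.517% of all genes it called higher, and 2 of the 9 (Casp1 and Casp4) had an unadjusted p under 0.05, as did 582 of all 11640 genes. In edgeR 6 of the 9 (these 2, Gsdmd, Il1a, Il1b and Il1rn) had an unadjusted p under 0.05, as did 1542 of the 11640 genes. DESeq2 gave log2 effects of 0.84 for Il1a, 0.75 for Il1b and 0.73 for Il1rn. Casp1 and Casp4 missed the threshold, at adjusted p = 0.113 and 0.107 (edgeR).

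The LPS ratios of the 2 genotypes were then compared directly, a comparison built from the same 4 libraries as those above. Il1rn was called: its LPS ratio was 3.18-fold larger in knockout, a log2 difference of 1.67 (0.99 to 2.35), against 1.18% of all genes called in this direction and 1.84% in the other. For Il1a the difference was 1.12, but the interval ran from -1.19 to 3.43, so it was not detectable with 3 untreated reads, and for Il1b none can be given. Casp4 (-0.54, -0.81 to -0.27), Casp1 (-0.36, -0.54 to -0.19) and Gsdmd (-0.24, -0.38 to -0.10) had smaller LPS ratios in knockout by less than 2-fold. Intervals that excluded 0, whatever the size, were found for these 3 and Il1rn and for 29.7% of all genes. For Casp1 and Casp4 the knockout library was higher before LPS and closer to wild type after it. Nlrp3 (-0.20 to 0.01), Il18 (-0.35 to 0.49) and Il18bp (-0.57 to 1.14) had intervals that included 0.

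Levels of different genes were compared per kilobase of the deposited gene length, as normalized CPM per kb. In untreated wild-type cells the processing and sensing genes led, with Gsdmd at 30.1, Casp1 at 23.3 and Nlrp3 at 20.4, followed by Il18 at 5.26 and Casp4 at 2.95. Il18bp was at 0.661, Il1rn at 0.352 and Il1a at 0.0800, and Pycard (0.0277) and Il1b (0) did not differ from their neighbours in this order beyond counting error. Untreated knockout cells had Casp1 first at 34.9, then Gsdmd at 27.5 and Nlrp3 at 21.7. Il18 (5.31) and Casp4 (5.30) were equal within counting error there.

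With LPS the ligands moved to the top of the order. In LPS-treated wild-type cells Il1b (141) and Nlrp3 (136) could not be separated and Il1a followed at 122 normalized CPM per kb. Gsdmd (59.4) and Casp1 (55.6) could not be separated either, and below them came Il18 at 36.5, Casp4 at 19.6, Il1rn at 13.5, Il18bp at 1.10 and Pycard at 0.0514. In LPS-treated knockout cells Il1b stood at 364 and Il1a at 261, above Nlrp3 at 136, Casp1 at 64.8 and Gsdmd at 46.0. Il18 and Il1rn were equal there at 38.6, ahead of Casp4 at 24.2, Il18bp at 1.21 and Pycard at 0.0490. The order of neighbours depends on the length used, since the deposited lengths cover all exons of a gene. With the longest coding transcripts, a choice made after the data were seen, Il1b in WT_LPS was at 198 and Nlrp3 at 138 normalized CPM per kb, and their interval no longer included equality. Gsdmd (78.8) then also lay above Casp1 (55.6) in WT_LPS. In KO_LPS Il1rn was then at 86.4, above Casp1 at 64.8, Casp4 at 62.7, Gsdmd at 61.0 and Il18 at 45.0, where neither Casp1 and Casp4 nor Casp4 and Gsdmd could be separated. In untreated cells Casp4 (7.63 in WT, 13.7 in KO) then exceeded Il18 (6.13 and 6.18), within counting error in WT, and in KO Gsdmd (36.5) and Casp1 (34.9) could not be separated. Il1b, Il1a and Nlrp3 were the first 3 genes in both LPS libraries with either length. Among all 11640 measured genes ranked per deposited length, Il1b was 410th in WT_LPS and 152nd in KO_LPS.

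The balance of each agonist to its antagonist was taken as the ratio of their levels per length, and the ratios describe RNA and not protein. Il1b over Il1rn was 10.5 (9.80 to 11.2) in WT_LPS and 9.44 (9.08 to 9.81) in KO_LPS, a log2 change of -0.15 (-0.26 to -0.04). Il1b exceeded Il1rn in both, by nearly the same factor, although each gene was over 2-fold higher in knockout. Without LPS the Il1b over Il1rn ratio was 0, with an upper counting limit of 0.304 in wild type and 0.333 in knockout.

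Il1a over Il1rn was 0.227 (0.0448 to 0.718) in WT, 0.247 (0.0486 to 0.787) in KO, 9.07 (8.49 to 9.70) in WT_LPS and 6.75 (6.49 to 7.03) in KO_LPS. The LPS-treated knockout value was lower than the wild-type one by a log2 change of -0.43 (-0.54 to -0.31). Il18 over Il18bp was 7.96 (5.44 to 11.9) untreated and 33.2 (24.9 to 45.1) with LPS in wild type, and 8.89 (6.01 to 13.4) and 31.9 (24.4 to 42.4) in knockout. Il18 RNA exceeded that of its binding protein in all 4 libraries. For Il1rn the deposited 5535 bp are longer than the longest coding transcript of 2474 bp. With the longest coding transcripts Il1b over Il1rn was 6.58 and 5.93 and Il1a over Il1rn was 4.06 and 3.02 in WT_LPS and KO_LPS.

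**Figure D4:**
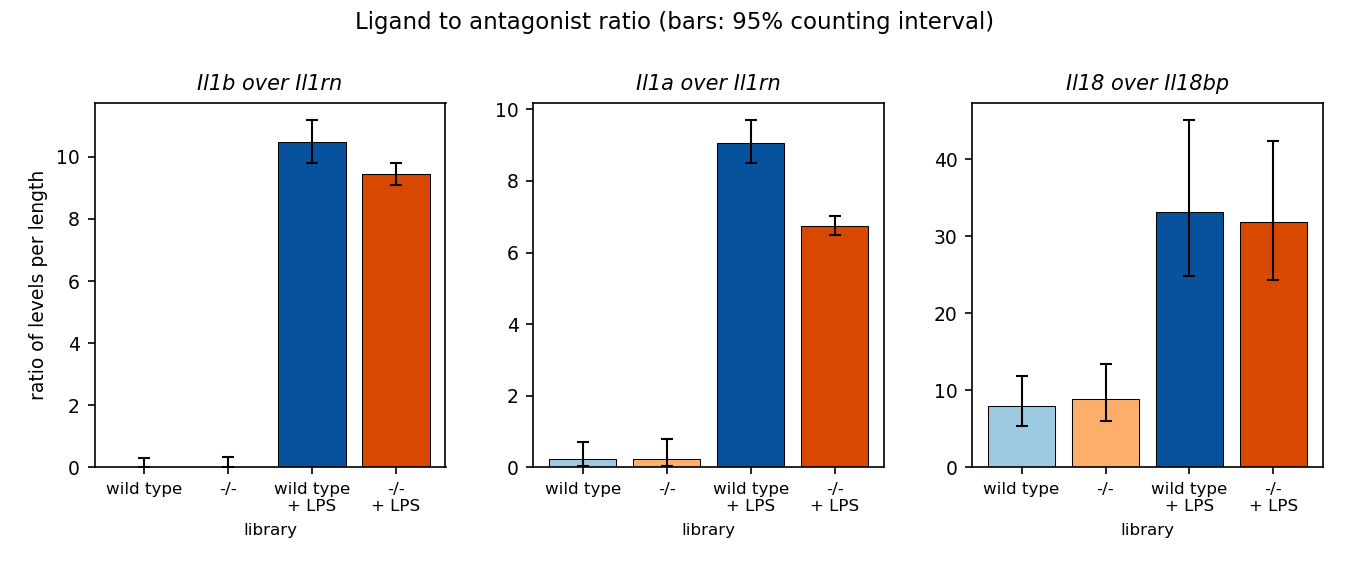
Ratio of ligand to antagonist level per length (linear axis from 0, 1 bar per library) with 95% counting intervals. Il1b over Il1rn is near 10 with LPS in both genotypes (10.5 and 9.44), and Il18 over Il18bp is near 8 to 9 untreated and above 30 with LPS.

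Within the caspase pair, Casp1 over Casp4 per length was 7.90 in WT, 6.59 in KO, 2.84 in WT_LPS and 2.67 in KO_LPS. The ratio was lower with LPS in both genotypes. Its size depends on the length used: with the longest coding transcripts it was 3.06, 2.55, 1.10 and 1.03 in the same order, so Casp1 and Casp4 were then close to each other with LPS. Nlrp3 over Casp1 was 0.875, 0.621, 2.45 and 2.09 in the same order. Il1b over Il1a was 1.15 (1.10 to 1.21) in WT_LPS and 1.40 (1.36 to 1.44) in KO_LPS on the deposited lengths, and both ratios were larger on the longest coding transcripts (1.62 in WT_LPS).

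Genes with the most similar pattern were found as those with the smallest distance in centred log2 CPM (pseudocount 0.5) over the 4 libraries, among 10334 protein-coding genes. Nearest to Il1b were Ptgs2 (distance 0.651), which encodes the inducible prostaglandin synthase, Il1a (0.714) and the chemokine gene Ccl5 (0.776). Nlrp3 was itself the gene nearest to Il18, at a distance of 0.0889. Samd9l (0.133) and Hsh2d (0.142) were nearest to Casp4, Lysmd1 (0.0824) to Casp1, Alcam (0.0471) to Gsdmd and Pou2f2 (0.0490) to Nlrp3. Il1rn had Gstt4 (0.308) and the formyl peptide receptor gene Fpr2 (0.363) as its nearest genes. Il1b, Il1a, Gstt4 and Fpr2 had 3 or fewer reads in each untreated library. Their untreated points were therefore set largely by the pseudocount, and their distances depend on it. With 4 libraries all these distances describe the libraries only.

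Other genes of the pathway were taken from 7 lists. Their LPS calls stand against 11.2% of all genes called higher and 10.1% lower in wild type, and 11.6% higher and 12.0% lower in knockout. Among 6 other IL-1 family ligands only Il1f6, the IL-36α gene on the same chromosome as Il1rn, was measured. It had 0 reads in both untreated libraries, 22 in LPS wild-type and 78 in LPS knockout cells, and was called higher in knockout after LPS (log2 1.76, 1.06 to 2.51). Il1f6 passed the filter only through its LPS-treated libraries, mostly KO_LPS, so its calls lend no support to a count. Il33 had 0, 0, 21 and 25 reads and Il1f9 2, 0, 24 and 10 reads, both under the filter. Il1f9 lay on the other side from Il1f6 after LPS, with a log2 ratio of knockout to wild type of -1.33 (-2.56 to -0.21). The remaining 3 (Il1f8, Il1f5 and Il1f10) had no read.

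Of 8 IL-1 family receptor genes 4 were measured (Il1rap, Il1rl1, Il18rap and Sigirr) and 0 were called by the 2-fold rule in any comparison. In the additive model Il1rap passed as higher and Sigirr as lower with LPS (edgeR's quasi-likelihood test). Il1r1, the signalling receptor for IL-1α and IL-1β, was under the filter with 22 and 10 reads untreated and 3 and 1 with LPS in wild type and knockout. Il1r2, the decoy receptor, had a single read, in LPS knockout cells, and Il18r1 had 2 to 10 reads per library.

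Of 16 genes of IL-1 receptor signalling 15 were measured, and with LPS 3 were called higher (against 11.2% and 11.6% of all genes) and 0 lower in each genotype. These were Irak2 (log2 2.31 in wild type, 2.73 in knockout), Irak3 (3.27 and 2.99) and Peli1 (2.01 and 1.89); Irak3 encodes an inhibitory member of the IRAK family. None was called between genotypes. Of 9 transcription factors known to act on Il1b, 9 were measured, 5 were called higher with LPS and 1 lower in each genotype. Atf3 had log2 ratios of 3.39 and 3.73, Irf8 1.71 and 2.40, Irf1 1.86 and 1.81 and Cebpb 1.11 and 1.69 in wild type and knockout. Nfkb1 had 1.75 in wild type, while Irf4 fell by 1.22 and by 1.45.

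Of 12 other inflammasome sensor genes 7 were measured. With LPS in wild type, Naip2 (log2 1.20) and Naip5 (1.13), which encode receptors of the NLRC4 inflammasome, were called higher and Nlrp10 (-2.09) lower. In knockout cells 0 sensors were called higher and Nlrp10 was called lower (-2.11). The difference between genotypes was not called for any sensor.

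Of 16 inflammasome regulators 15 were measured, and 7 were called higher and 1 lower with LPS in each genotype. The guanylate-binding proteins, which act on bacterial membranes upstream of caspase-11, had the largest ratios of this list. In wild type the log2 ratio of Gbp3 was 8.34 (7.21 to 9.79) and that of Gbp5 8.97 (7.11 to 12.02), and in knockout they were 9.02 (7.80 to 10.65) and 7.90 (6.67 to 9.52). Gbp2 had 1 read in each untreated library and 416 and 485 with LPS, or log2 ratios of 9.01 (6.52 to 14.31) and 9.19 (6.70 to 14.50). At least Gbp2, Gbp3, Gbp5 and Gm12250 passed the filter only through their LPS-treated libraries, so they had to differ and lend no support to the count of 7. P2rx7, the ATP-gated channel gene that provides a second signal for NLRP3, was the 1 called lower (-1.13 and -1.41). Of 12 other pyroptosis executors 4 were measured and 0 were called. Ninj1, which encodes a protein of plasma membrane rupture, had a log2 genotype ratio of -0.64 (-0.77 to -0.51) after LPS, under the 2-fold rule. In the additive model by edgeR's quasi-likelihood test, 0 of the 55 measured genes of the 7 lists passed for genotype, and DESeq2 also called 0; 13 of them (23.6%) in edgeR and 6 (10.9%) in DESeq2 had an unadjusted p under 0.05, against 1542 and 582 of the 11640 genes tested.

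**Figure D5:**
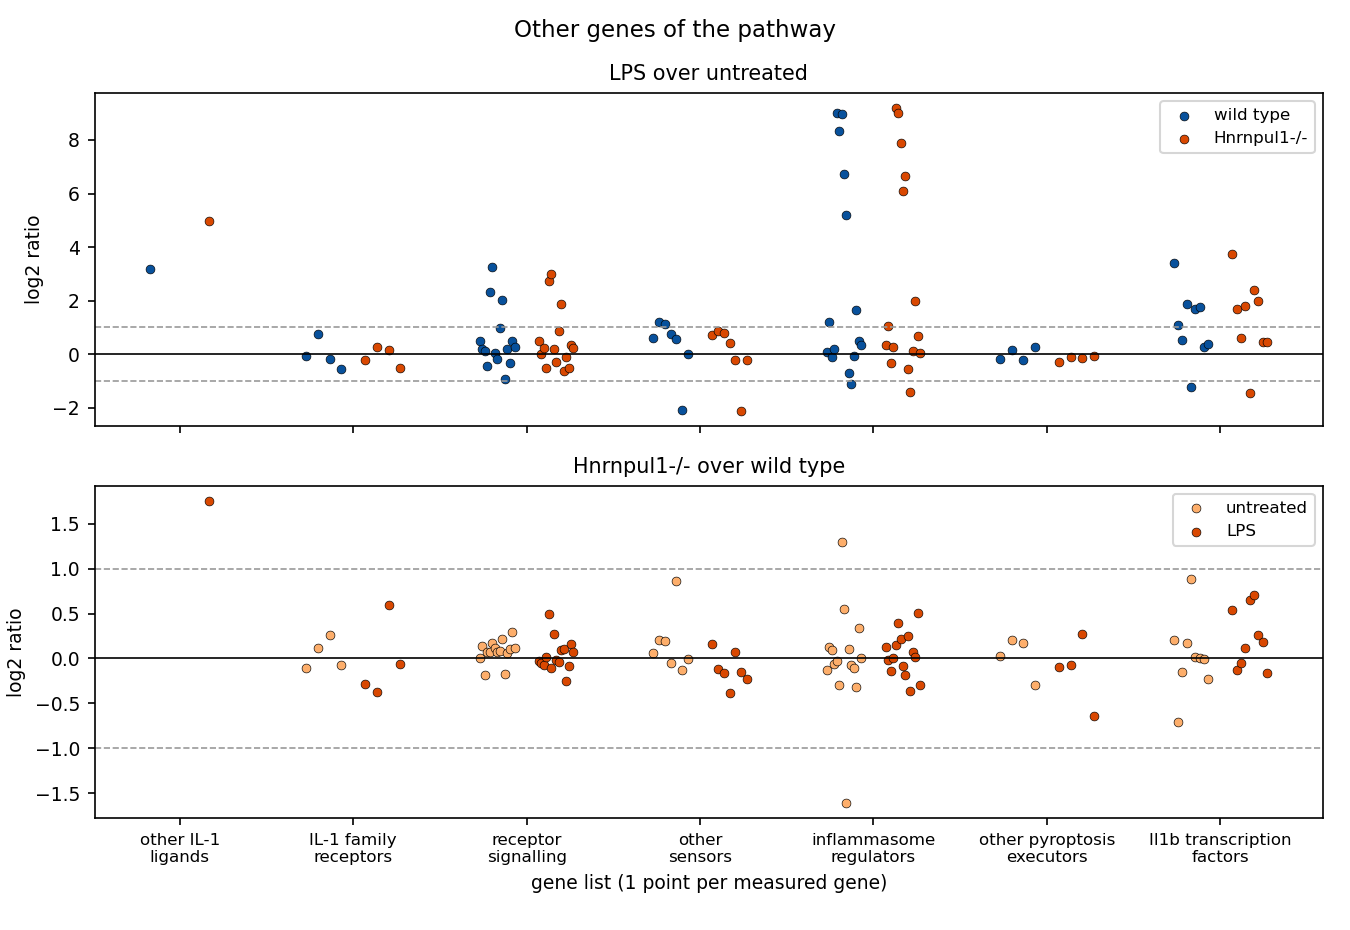
Log2 ratio of each measured gene of the 7 pathway lists, 1 point per gene, for LPS (top) and for genotype (bottom), with dashed lines at 2-fold. The genotype point beyond the line after LPS is Il1f6 at 1.76, and the untreated points beyond it are Gbp5 and Gm12250, each with 5 or fewer untreated reads per library and not called.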

How the data were processed

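Reads were base-called with CASAVA 1.8, aligned with HISAT2 2.0.5 to GRCm38/mm10 and counted with featureCounts 1.5.0-p3, per the submitters' processing notes; settings, strand use and the annotation release are not stated. The deposited tables hold whole-number read counts per gene, and the authors' FPKM values (scaled to gene length and library size) beside them. The poly-A RNA libraries came from 4 groups of 1 library, so no p-value between groups of replicates was possible. Counts were scaled by TMM (edgeR 4.0.16, R 4.3.3). Ratios have exact conditional Clopper-Pearson 95% intervals, and where a library had 0 reads of a gene, 3 counts stood in for them. The difference between LPS ratios has a delta-method interval. Genes with a mean of at least 1 CPM over the 4 libraries were tested. The additive model (edgeR's quasi-likelihood test, all 4 libraries, Benjamini-Hochberg adjustment, threshold 0.05) has genotype and LPS as terms and 1 residual degree of freedom, which is their interaction. DESeq2 1.42.0 was an alternative, as were DESeq2 size factors, total counts, thinned counts, the deposited FPKM with a pseudocount of 1, other fold rules and other filters. The scripts were tested on simulated data. Named are all 10 members, Hnrnpul1, the pathway genes given by list, and the 3 genes nearest in pattern to a member, of which 1 to 3 are printed. Members and lists were chosen with earlier results of these data known. Promoter bases are from RefSeq on GRCm38.p6.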

Additional observations from a re-analysis of the deposited data

Results flagged for a closer look

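The LPS response of Il1rn differed between genotypes: the log2 ratio of LPS-treated to untreated was larger by 1.67 (0.99 to 2.35) in knockout than in wild-type cells. The interval excludes 0 but covers counting error only, and with 1 library in each of the 4 groups the difference was not tested against replicate spread. It rests on 37 and 34 untreated reads and on 1145 and 3441 reads with LPS in wild type and knockout.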

How the results depend on the processing

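No paired analysis was possible because each group had 1 library and no replicate numbers, and for the same reason no library could be left out. No called log2 ratio of a member changed sign under an alternative that gave a value. With DESeq2 size factors, thinned counts or 1 in place of 3 counts for a 0, all 43 log2 ratios of members stayed within their counting intervals. Scaling by total counts moved the median LPS ratio of all genes from -0.004 to -0.30 (wild type) and from -0.02 to -0.33 (knockout), the share of calls that were higher from 52.6% to 33.9% and from 49.0% to 31.4%, and the members called higher from 7 to 6 in each genotype. A 1.5-fold rule called 4432 genes for LPS in wild type, 4695 for LPS in knockout, 569 for genotype untreated, 987 for genotype with LPS and 754 for the difference of LPS ratios (2489, 2743, 234, 406 and 350 under the 2-fold rule), and 1 member, Casp4, for genotype untreated. Requiring the whole interval beyond 2-fold left 48 and 121 genes for genotype untreated and with LPS, and 39 genes and 0 members for the difference of LPS ratios. The deposited FPKM gave 1820 genes for LPS in knockout, 107 and 197 for genotype untreated and with LPS, and 3 members for the difference of LPS ratios. Without a filter 565, 786 and 569 genes were called for genotype untreated, genotype with LPS and the difference, and with at least 10 CPM 1573, 1711, 43, 102 and 63 genes were called in the order of the first list. For the additive genotype effect, DESeq2 called 0 members and 133 genes, and edgeR without a filter called 5 members (Casp1 and Casp4 added) and 463 genes, where the filtered edgeR fit called 3 and 223. With the longest coding transcripts, chosen after seeing the data, Il1b over Il1rn was 6.58 and 5.93 and Il1a over Il1rn 4.06 and 3.02 in WT_LPS and KO_LPS, and the order of several members by level changed. Depth limits Il1a, Il1b and Pycard in untreated cells and Il18bp throughout; the cause of these differences was not tested.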
